A study of Homo sapiens with 96 samples.

Results

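Most transcripts that rose in A375 melanoma cells under the translation inhibitor cycloheximide (CHX) were lower when the transcription inhibitor triptolide was added as well (TCHX). At 5 h the immediate-early genes EGR1, FOS and JUN lay below every library of untreated cells, although FOS was at low counts and its difference from them was not called. The comparison rested on 18 of the 96 libraries of the series, chosen by their labels alone as the DMSO-pretreated cells that received TCHX or CHX and were harvested after 1, 3 or 5 h, with 3 libraries in each arm at each time, and the arms were compared at matched times. A375 is an established human skin melanoma line that carries an activated BRAF kinase. All cells were kept for 18 h in fresh medium with DMSO, the solvent, and then received 100 µg/ml CHX, and the TCHX arm received 25 µM triptolide 5 min later in place of DMSO. The references were the same arms at 0 h, a vehicle arm (DMSO throughout), an arm with triptolide alone (T), and the CHX and TCHX arms of cells kept for 18 h in 500 nM vemurafenib and 500 nM cobimetinib, inhibitors of BRAF and MEK (MAPKi). MAPK signalling was therefore not inhibited in any of the 18 libraries. Only 1 cell line was studied, the RNA came from the cytoplasmic fraction of detergent lysates, and whether the replicates came from separate cultures is not given in the sources used here, so the p-values measure the spread between these libraries.

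Cycloheximide stalls elongating ribosomes, so that short-lived repressors and decay factors are no longer replaced. Immediate-early genes, which are switched on by MAPK and stress signals without the need for new protein, are known to accumulate their mRNAs to very high levels in its presence, a response called superinduction. Because many of these mRNAs are unstable, a higher level can come from more synthesis or from slower decay. Triptolide binds the XPB subunit of the general transcription factor TFIIH and stops initiation by RNA polymerase II. A rise that is lost with triptolide is thus one that needs new transcripts, whether more are made or new ones decay more slowly. RNA that was already there can at most keep its starting level, so a level above vehicle can also come from a fall in vehicle. The comparison describes which rises were lost and which levels stayed above vehicle. Whether synthesis or decay changed was not tested.

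The promoters of 4 genes that describe the response are shown because their short sequence motifs belong to the families of signals discussed here, the serum response (EGR1), cyclic AMP and stress signalling (DUSP1) and NF-kB (NFKBIA and BIRC3). The sequences are from RefSeq (GRCh38.p14), run 5′ to 3′ on the strand of the gene, and cover 250 bases before and 50 after the annotated start. EGR1 lies at chr5:138465229-138465528 (plus strand), DUSP1 at chr5:172771146-172771445 (minus strand), NFKBIA at chr14:35404700-35404999 (minus strand) and BIRC3 at chr11:102317234-102317533 (plus strand). Capitals mark the CArG box, the binding motif of the serum response factor, in EGR1, the cyclic AMP response element TGACGTCA in DUSP1, and the kappa-B motif in NFKBIA and BIRC3.
EGR1: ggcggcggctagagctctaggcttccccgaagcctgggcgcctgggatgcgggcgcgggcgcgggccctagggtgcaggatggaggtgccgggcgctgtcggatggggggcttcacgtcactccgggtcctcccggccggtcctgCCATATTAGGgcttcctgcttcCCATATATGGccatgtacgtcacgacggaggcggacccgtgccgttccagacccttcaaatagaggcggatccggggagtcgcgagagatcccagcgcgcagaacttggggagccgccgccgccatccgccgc
DUSP1: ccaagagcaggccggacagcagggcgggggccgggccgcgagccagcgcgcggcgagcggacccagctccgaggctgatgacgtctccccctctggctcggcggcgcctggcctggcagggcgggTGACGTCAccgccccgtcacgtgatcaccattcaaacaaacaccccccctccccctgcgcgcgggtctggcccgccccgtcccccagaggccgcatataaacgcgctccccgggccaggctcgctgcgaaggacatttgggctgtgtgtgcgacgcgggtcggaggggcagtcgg
NFKBIA: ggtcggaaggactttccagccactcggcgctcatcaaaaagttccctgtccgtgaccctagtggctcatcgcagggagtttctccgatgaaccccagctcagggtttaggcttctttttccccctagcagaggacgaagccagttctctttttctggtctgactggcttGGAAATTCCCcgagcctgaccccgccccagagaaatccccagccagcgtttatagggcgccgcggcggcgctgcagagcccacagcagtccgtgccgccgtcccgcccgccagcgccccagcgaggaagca
BIRC3: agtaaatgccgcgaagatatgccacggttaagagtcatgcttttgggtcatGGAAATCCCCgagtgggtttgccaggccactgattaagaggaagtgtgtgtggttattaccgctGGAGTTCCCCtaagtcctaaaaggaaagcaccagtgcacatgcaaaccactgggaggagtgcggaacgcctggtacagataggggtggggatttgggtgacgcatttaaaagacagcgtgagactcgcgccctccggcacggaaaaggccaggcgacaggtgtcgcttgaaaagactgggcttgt
Both strands were searched, and none of the marked motifs overlapped another. Among the 35116 promoters of this length in the table, 1.29% held a CArG box, 1.85% held TGACGTCA and 5.91% held a kappa-B motif. The shares were 1.03%, 3.16% and 6.56% over the 11024 tested genes with a promoter. Of the 12 genes of the NF-kB list described further on with a promoter, 7 (58.3%) held a kappa-B motif, and 2 of 9 AP-1 genes held TGACGTCA. A CArG box was in 0 of these 9 and in 2 of 19 other immediate-early genes. These lists were chosen for known roles. Among 93 genes lower with TCHX than CHX at 1 h, the shares were 1.08% (CArG), 4.30% (TGACGTCA) and 4.30% (kappa-B), near those of all tested genes. Of 16 genes raised by CHX at 1 h, 0 held a kappa-B motif. A match describes letters in the window and was not tested as a binding site.

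Levels are given as normalised CPM, which is the deposited count scaled to a common depth by 36 stable genes. Each triplet of values lists replicates 1, 2 and 3, differences between arms are on the log2 scale with their standard error, and a gene was called when its adjusted p was under 0.05 in edgeR's quasi-likelihood test over 14948 genes. Total counts of the 18 libraries ranged from 3525808 to 11571408 (median 7572116), and replicates correlated at Pearson's r of 0.970 to 0.986 on log2 values across genes. The melanocyte regulators MITF and SOX10 were present, whereas MLANA, TYR, TYRP1, GPR143, SLC45A2 and TRPM1 of the 15 melanocyte lineage genes were under 1 CPM. Summed markers overlapped between the arms over the libraries of 1, 3 and 5 h, at 900 to 1116 CPM with CHX and 982 to 1103 with TCHX for melanocytes, 119 to 190 and 104 to 149 for keratinocytes (5 of 6 genes under 1 CPM in both arms), 4.21 to 8.55 and 2.84 to 9.09 for fibroblasts, and 1.66 to 6.19 and 1.13 to 5.69 for blood and endothelial cells. Every library started from 500 ng of RNA, so fewer cells and less RNA per cell cannot be told apart.

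EGR1, the serum-responsive zinc finger factor (chr5:138465479-138469303, plus strand), shows the pattern in full. In vehicle cells EGR1 stood at 52.5, 56.8 and 59.8 CPM after 1 h and at 78.6, 68.8 and 70.2 after 5 h. With CHX it reached 260, 276 and 440 after 1 h, 4503, 4840 and 4804 after 3 h and 6759, 6687 and 6659 after 5 h. With TCHX it started at 58.3, 70.6 and 46.0 at 0 h and stood at 52.0, 48.4 and 46.1 after 1 h, 31.6, 23.9 and 26.4 after 3 h and 10.8, 14.4 and 13.1 after 5 h. From 1 h on every TCHX library lay below every CHX library, and at 5 h below every vehicle library as well. The TCHX level at 5 h was 0.190% of the CHX level and 17.6% of the vehicle level, although CHX alone had raised EGR1 92.4-fold over vehicle. Averaged over 3 and 5 h, EGR1 was lower with TCHX than with CHX by a log2 difference of -8.25 ± 0.18 (adjusted p = 9.0e-53).

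FOS, a subunit of the AP-1 transcription factor (chr14:75278826-75282230, plus strand), was at 3.06, 4.93 and 3.77 CPM in vehicle cells at 5 h and at 780, 722 and 951 with CHX. With TCHX, FOS was at 4.52, 2.01 and 6.09 after 1 h and at 2.02, 2.38 and 1.01 after 5 h. The largest TCHX value thus lay below the smallest CHX value at 1 h, where CHX libraries were at 44.2, 35.8 and 44.9. Against vehicle at 5 h FOS was not called (log2 difference -1.04, edgeR adjusted p = 0.069), with 21, 19 and 6 counts in the TCHX libraries. JUN, the partner of FOS in AP-1 (chr1:58776845-58784048, minus strand), rose with CHX to 156, 153 and 155 CPM at 1 h and 2181, 1988 and 2029 at 5 h. With TCHX, JUN stood at 22, 23.7 and 18.3 at 1 h and at 11, 9.51 and 6.54 at 5 h, below the 61.0, 63.3 and 46.1 of vehicle. The TCHX level at 5 h was 0.220% of the CHX level for FOS and 0.436% for JUN.

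**Figure D1:**
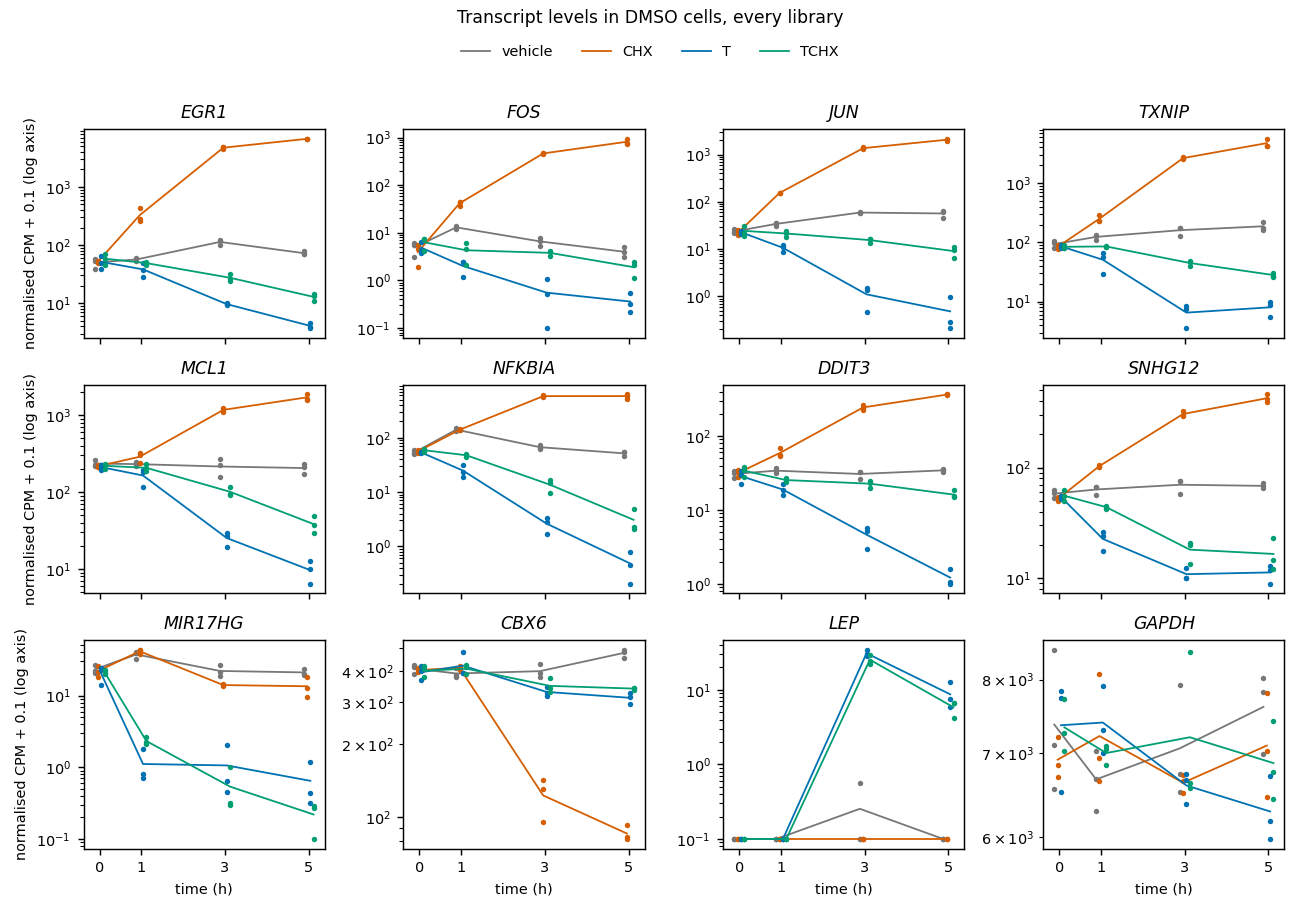
Normalised CPM (plus 0.1, log axis) against time after treatment (h) for 12 genes in DMSO-pretreated cells, with a point for each library and a line through the mean of the 3 libraries of each of the vehicle, CHX, T and TCHX arms. EGR1, FOS, JUN, TXNIP, MCL1, NFKBIA, DDIT3 and SNHG12 climbed in the CHX arm and not in the TCHX arm, MIR17HG dropped with triptolide by 1 h, CBX6 was lowest with CHX alone, LEP appeared with triptolide at 3 h, and GAPDH stayed flat on this axis.

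Few genes differed between the arms at the start, and the number grew with time. At 0 h a single entry was called higher with TCHX than with CHX (0.00669% of the 14948 genes), DNAJC8_1, a repeated entry of the gene table, and 0 genes (0.0%) were called lower by edgeR or by DESeq2, with 125 lower and 369 higher at an unadjusted p under 0.05. At 1 h, 126 genes (0.843%) were lower with TCHX and 1 (0.00669%) was higher. The higher one, FRG1, had 5, 360 and 1 counts in its TCHX libraries and rested on replicate 2. The 127 calls at 1 h became 51, 55 and 70 without replicate 1, 2 and 3. At 3 h, 3635 genes (24.3%) were lower and 229 (1.53%) higher, and at 5 h, 6095 (40.8%) were lower and 2.51% of genes higher. For the mean of 3 and 5 h, the main contrast, 6404 genes (42.8%) were lower and 495 (3.31%) higher.

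The median difference over all genes moved from 0.06 at 0 h to -0.06, -0.26 and -0.45 at 1, 3 and 5 h. This shift rests on the scale. The 36 stable genes, which were selected because their share of the counts rose after triptolide alone, took 0.752 to 0.784 of their reference share in the CHX libraries at 5 h and 1.03 to 1.11 in the TCHX libraries. With edgeR's TMM factors, which centre each library on the bulk of its genes, the median was 0.02 in place of -0.34 for the mean of 3 and 5 h, and the split was 3615 lower to 3105 higher (3662 to 3029 with total counts). At single times the TMM split was 2110 lower to 1280 higher at 3 h and 3220 to 2668 at 5 h. Gene groups are therefore read below against the median of all genes, -0.34, and 16 of the 22 lists kept their side of that median under every alternative run. The exceptions were the BCL2, heat shock and ribosomal protein lists and the keratinocyte, fibroblast and blood and endothelial markers.

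**Figure D2:**
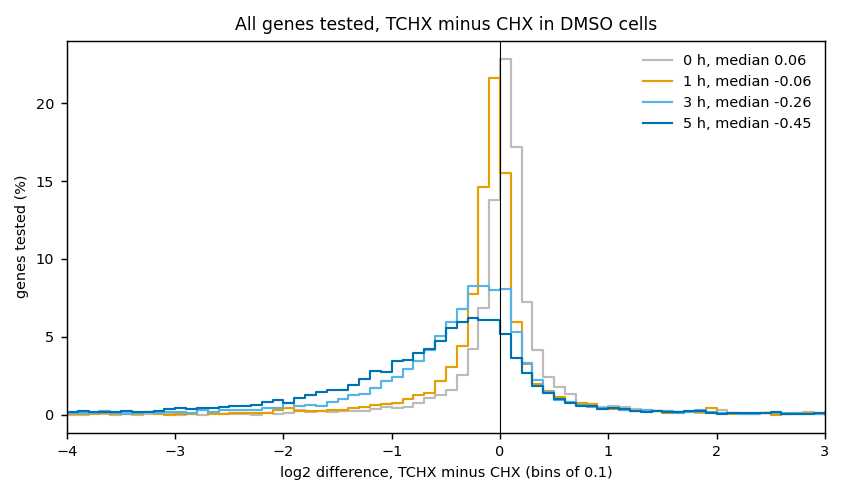
Distribution of the TCHX minus CHX log2 difference over 14948 genes at 0, 1, 3 and 5 h (bins of 0.1, x axis from -4 to 3, y axis the percentage of genes tested). The median moves from 0.06 at 0 h to -0.45 at 5 h and a long lower tail appears by 3 h.

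To ask which rises were lost with triptolide without reusing libraries, genes were chosen by CHX against vehicle at one time. They were then described in TCHX against CHX at another time, and that contrast has no library in common with the first. Loss of a rise is the likely outcome once transcription is blocked, so the shares describe its extent. CHX raised 1601 genes over vehicle at 3 h (10.7% of genes, with 142 or 0.95% lower). In the libraries of 5 h, 1517 of these 1601 (94.8%) were lower with TCHX than with CHX, where 40.8% of all genes were, and 4 were higher. Their median difference was -1.5, against -0.45 for all genes, and the median rise of the same genes with CHX over vehicle at 5 h was 0.99. Under the other scalings the share was 90.3% (TMM), 91.0% (total counts) and 93.2% (mitochondrial rRNA), and leaving out each replicate number gave 93.8% to 95.8%, of 1013, 786 and 1100 raised genes without replicate 1, 2 and 3.

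The converse choice gave the same picture at the earlier time. Of 3199 genes raised by CHX at 5 h (21.4%, with 787 or 5.26% lower), 2346 (73.3%) were lower with TCHX at 3 h, where 24.3% of all genes were, and the median difference was -0.70. Against vehicle at 3 h, 60 of the 3199 were higher with TCHX, where 1.7% of all genes were, and 663 were lower, where 9.74% were. Of the 142 genes lower with CHX at 3 h, 25 (17.6%) were lower and 30 higher with TCHX at 5 h, where 40.8% of all genes were lower and 2.51% higher, with a median of 0.02. Of the 787 genes lower with CHX at 5 h, 56 (7.12%) were lower and 28 higher with TCHX at 3 h, where 24.3% and 1.53% of all genes were.

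Once triptolide was present, the share of these genes called above untreated cells was near that of all genes. Of the 1601 genes raised at 3 h, 815 (50.9%) were lower in TCHX than in vehicle at 5 h, where 25.1% of all genes were, 769 were not called, and 17 (1.06%) were above vehicle, against 1.34% of all genes. The share below vehicle depended on the scale, at 27.2% (301 genes) with TMM, 33.0% (342) with total counts and 23.4% (679) with mitochondrial rRNA. The shares of all genes below vehicle were not counted on these scales, so whether the raised genes exceeded them there was not tested. Above vehicle were 4.07% with TMM, against 4.82% of all genes, and 2.51% against 2.37% with total counts. Without replicate 1, 2 and 3, 440, 337 and 462 genes were below vehicle. Among the 470 genes that CHX raised at least 2-fold at 3 h, 423 (90.0%) were lower with TCHX at 5 h with a median of -2.70, 208 (44.3%) ended below vehicle and 9 above it.

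**Figure D3:**
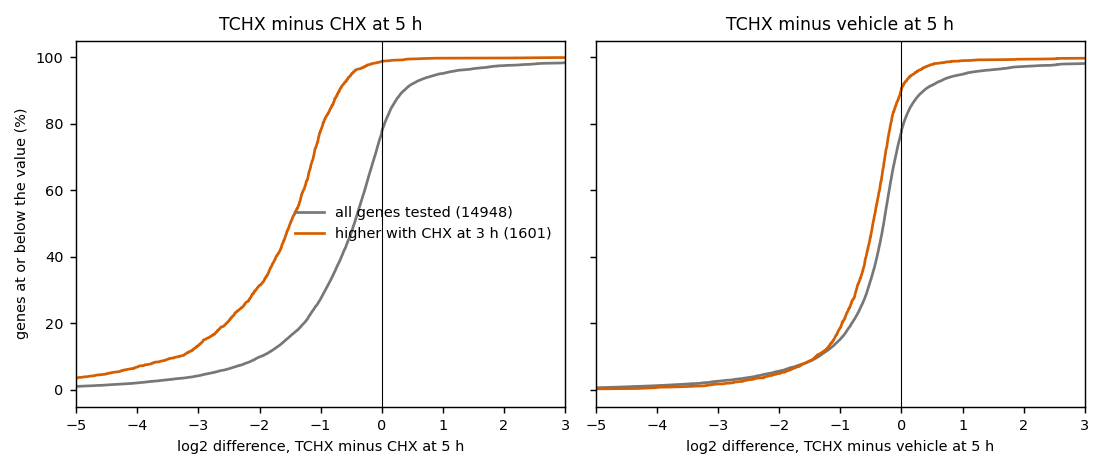
Cumulative share of genes (y axis, in percent) against the log2 difference at 5 h (x axis, -5 to 3) for the 1601 genes raised by CHX at 3 h and for all 14948 genes, as TCHX minus CHX and as TCHX minus vehicle. The raised genes lie to the left of all genes in both, with medians of -1.5 and -0.47 against -0.45 and -0.29.

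The 17 genes raised at 3 h that stood above vehicle at 5 h with both drugs were COL9A3, CSMD2, EME2, FAM71F1, HEY1, INHBA, LOC105374748, LOC105378106, LRATD2, MAMDC4, MICALL2, MITF, RNF222, SIRT4, SLC20A1, UCN2 and ZCCHC24. They were named after their values were seen, and without replicate 1, 2 and 3 there were 6, 6 and 12 such genes. MITF, the master regulator of the melanocyte lineage, fell in vehicle from 401, 358 and 371 CPM at 0 h to 173, 144 and 172 at 5 h, and stood at 271, 247 and 299 with CHX and 251, 243 and 260 with TCHX. At 0 h MITF was at 371, 350 and 404 with TCHX, so its TCHX level at 5 h was below the start. The CHX and TCHX values of MITF at 5 h overlapped, and both lay above vehicle and above the 124, 111 and 108 of triptolide alone. SLC20A1, a phosphate transporter, followed the same order, with 349, 324 and 374 CPM in vehicle at 5 h, 616, 589 and 587 with CHX, 503, 480 and 478 with TCHX and 276, 288 and 268 with triptolide alone. At 0 h SLC20A1 was at 664, 619 and 593 in vehicle, 600, 619 and 566 with CHX and 609, 650 and 620 with TCHX. Its vehicle level had thus fallen by 5 h, its CHX level overlapped the start and its TCHX level lay below the start. INHBA, the activin A subunit, was at 8.68, 4.64 and 14.8 CPM in vehicle at 5 h, 90.3, 90.4 and 85.5 with CHX and 17.4, 15.6 and 16.1 with TCHX. At 0 h INHBA was at 26.3, 24.6 and 28.7 in vehicle and 30.4, 22.3 and 28.8 with TCHX. It thus fell in both of these arms, by less with TCHX, and its rise with CHX was not kept.

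Of the 1601 genes, 4 were higher with TCHX than with CHX at 5 h, LOC105374748, SIRT4, STK32A-AS1 and ZCCHC24, and STK32A-AS1 was near 0 counts. ZCCHC24, a zinc finger gene, was at 80.7, 65.3 and 91.8 CPM in vehicle at 5 h, 57.4, 59.5 and 57.3 with CHX and 99.8, 112 and 107 with TCHX. Its CHX libraries thus lay below vehicle at 5 h, although they had been above vehicle at 3 h. At 0 h ZCCHC24 was at 129, 128 and 133 in vehicle and 128, 138 and 140 with TCHX, so its TCHX level at 5 h was below the start. SIRT4, a mitochondrial sirtuin, was at 0.766, 1.16 and 1.74 CPM in vehicle at 5 h, 0.797, 0.264 and 2.41 with CHX and 6.84, 5.76 and 9.22 with TCHX. Its CHX and vehicle libraries overlapped at that time. LOC105374748, an uncharacterised locus, was at 9.19, 11.9 and 6.96 CPM in vehicle, 58.0, 48.6 and 52.5 with CHX, 334, 325 and 480 with TCHX and 34.4, 26.6 and 22.5 with triptolide alone, so its level was highest with both drugs.

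The earliest rises were few. At 1 h CHX raised 17 genes over vehicle (0.114%) and 0 (0.0%) were lower by edgeR or by DESeq2, with 134 lower at an unadjusted p under 0.05. The 17 were ATF3, CCNL1, DDIT3, EGR1, EPB41L4A-AS1, FOS, IBTK, IER2, JUN, LOC102723347, MAP3K14, SERTAD1, SNHG1, TRA2B, TXNIP, XAGE1A and YWHAE. In the libraries of 5 h, 13 of the 17 (76.5%) were lower with TCHX than with CHX, where 40.8% of all genes were. The median was -4.68 over the 17, against -0.45 for all genes. At 3 h 13 were lower, where 24.3% of all genes were, with a median of -3.45 against -0.26. The 4 that were not lower at 5 h each rested on 1 high library or on low levels at 1 h. Their CHX values at 1 h were 21.1, 1.1 and 0.488 CPM for IBTK, 2.71, 2.06 and 0.733 for LOC102723347, 1.73, 198 and 3.18 for XAGE1A, and 1.36, 2.33 and 85.0 for YWHAE. The count of 17 itself was 4, 11 and 6 without replicate 1, 2 and 3.

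Among these early genes, IER2 (chr19:13150411-13154911, plus strand), an immediate-early gene for a nuclear protein, was at 136, 132 and 129 CPM in vehicle at 5 h, 4120, 3785 and 3616 with CHX and 28.8, 25.3 and 29.0 with TCHX. TXNIP, which binds thioredoxin and restrains glucose uptake (chr1:145992435-145996579, minus strand), was at 163, 177 and 220, at 4298, 4251 and 5631 and at 27.4, 30.5 and 26.0 in the same order. ATF3, a stress-induced bZIP factor (chr1:212565334-212620777, plus strand), was at 9.96, 6.96 and 6.09 in vehicle, 766, 768 and 703 with CHX and 6.46, 5.13 and 5.53 with TCHX. For IER2 and TXNIP every TCHX library lay below every vehicle library, and for ATF3 the lowest vehicle library lay within the TCHX range. MAP3K14, the NF-kB-inducing kinase, was at 14.8, 14.8 and 18.3 in vehicle, 286, 308 and 267 with CHX and 3.95, 5.63 and 2.35 with TCHX. Its antisense neighbour MAP3K14-AS1 overlaps it, and whether the counting used strand is not given in the sources used here. The same limit applies to EPB41L4A-AS1, IER2 and DDIT3, which also overlap other genes.

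Regulators of splicing and the cell cycle were among the early genes too. CCNL1, the cyclin L1 of splicing kinases, was at 98.3, 71.7 and 87.4 CPM in vehicle, 891, 856 and 1013 with CHX and 40.7, 31.2 and 28.3 with TCHX. SERTAD1, a cell cycle and transcription cofactor, was at 37.3, 28.4 and 34.9, then 410, 426 and 424, then 15.4, 17.7 and 16.1. TRA2B, a splicing activator, kept more of its level, with 374, 319 and 373 in vehicle, 1390, 1255 and 1364 with CHX and 262, 233 and 209 with TCHX. The TCHX level of TRA2B was 17.6% of the CHX level and 66.0% of vehicle, against 0.592% and 15% for TXNIP.

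The genes lower with TCHX at 1 h were described by their annotation. This contrast and that of CHX with vehicle at 1 h use the same CHX libraries, so their genes are not set against each other. Of the 126 genes lower with TCHX than with CHX at 1 h, 101 (80.2%) could be matched to an annotation, and 25 of these (24.8%) were long non-coding RNAs, against 7.38% of all genes matched. Their median number of exons was 4, against 9 for all genes, and their median gene span was 9194 bases, against 35883. Single-exon genes made up 15.3% of the 72 protein-coding genes among them, against 2.15% overall. The AU-rich motif TTATTTATT was present in 9.72% of the annotated 3′ ends of these genes, against 10.0%. Their median CHX level was 50.6 CPM, against 18.1 for all genes, and the part of the level in these features was not tested.

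MIR17HG, the host transcript of the miR-17-92 microRNA cluster (chr13:91347686-91397592, plus strand), was the first of the 6 genes named for their fall at 1 h. It was at 40.4, 39.1 and 32.7 CPM in vehicle, at 38.0, 42.5 and 43.7 with CHX and at 1.98, 2.56 and 2.15 with TCHX, a log2 difference of -4.22 ± 0.35 (edgeR adjusted p = 7.7e-16). MIR17HG was not called between CHX and vehicle at 1 h, and those libraries overlapped. LINC01004, a long non-coding RNA antisense to KMT2E, was at 21.2, 25.8 and 49.1 CPM with CHX and 1.65, 4.57 and 3.58 with TCHX. Its difference was -3.34 ± 0.26. The others of the 6 were NFYC-AS1 at -3.47 ± 0.55, FOS at -3.28 ± 0.29, JUN at -2.85 ± 0.16 and CCN1, a matrix-associated immediate-early protein, at -2.84 ± 0.61. YWHAE, at -3.88, did not meet the rule, since only replicate 3 was lower with TCHX. CCN1 was no longer called at 1 h without replicate 1 or without replicate 2. LINC01004 and NFYC-AS1 overlap KMT2E and NFYC on the other strand, so their reads cannot be assigned with certainty.

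The lists of genes with known roles ranged from groups with nearly every member lower with TCHX to groups near the median of all genes. Each count of lower genes stands against 42.8% of all genes. Of 12 AP-1 and related bZIP genes, 11 were lower with TCHX than with CHX over 3 and 5 h and none was higher, with a median of -3.46. CHX was higher than vehicle for 11 of the 12, with a median of 2.72, where 24.9% of all genes were higher and 5.76% lower (3721 and 861 genes, or 2733 and 2010 with TMM and 6764 and 253 with mitochondrial rRNA). Both contrasts use the same CHX libraries, so their values are set side by side and not compared. The largest differences belonged to FOS (-7.87 ± 0.22), FOSB (-7.35 ± 0.23), JUN (-7.14 ± 0.13), ATF3 (-6.75 ± 0.17) and JUNB (-6.07 ± 0.19). JUND (-3.18), FOSL2 (-2.88) and FOSL1 (-2.55) fell less, as did the small MAF proteins MAFG (-1.34) and MAFK (-1.25). BATF3, at 0.10, was the member that was not called.

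Of 25 tested genes among 26 other immediate-early genes, 24 were lower and none higher (median -4.02), and CHX had raised 23. EGR2 (-9.37 ± 0.29), CCN1 (-9.12 ± 0.56), EGR1 and ARC (-6.08), a gene first known from synaptic activity, led the list. The orphan nuclear receptors NR4A3 (-5.89), NR4A1 (-4.54) and NR4A2 (-4.12) and the zinc finger factors KLF10 (-4.99), KLF2 (-4.02), KLF5 (-3.98) and KLF4 (-3.25) followed. MYC, the growth regulator with an unstable mRNA, was lower by a log2 difference of -3.24. SRF, whose protein binds the CArG box, was at -1.40, and KLF11 at -0.49 was not called. EGR4, which is in no list, was at 71.2, 69 and 82.8 CPM with CHX at 5 h and had 0 counts in all 3 TCHX libraries at that time and 4, 0 and 0 at 3 h, and it was not called by DESeq2.

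Of 13 tested genes among 15 that feed back on ERK, 11 were lower and none higher (median -2.27). The dual-specificity phosphatase DUSP1 was at 3.57, 1.16 and 3.91 CPM in vehicle at 5 h, 69.4, 57.6 and 91.5 with CHX and 0.193, 0.376 and 0.335 with TCHX, which is 2, 3 and 2 counts. DUSP6, the phosphatase of ERK itself, was at 335, 243 and 400 in vehicle, 832, 931 and 1474 with CHX and 85.4, 73.7 and 44.6 with TCHX. SPRY2, an inhibitor of receptor tyrosine kinase signalling, was at 67.7, 79.5 and 72.8, at 540, 483 and 472 and at 15.7, 11.1 and 8.88. For all 3 genes the TCHX libraries lay below vehicle. DUSP4 (-0.43), SPRY4 (-0.63) and SPRED2 (-0.81) differed by much less than these, and SPRED3 and DUSP7 were not called.

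Of 24 NF-kB feedback genes, chemokines and cytokines, 15 passed the filter on low counts, and 13 of them were lower and none higher (median -2.58). NFKBIA, the inhibitor that NF-kB induces to switch itself off, overlapped at 1 h between vehicle (133, 139 and 150 CPM) and CHX (139, 136 and 146). At 5 h it stood at 54.4, 45.6 and 54.7 in vehicle, 593, 524 and 635 with CHX and 4.82, 2.13 and 2.01 with TCHX, so the TCHX level was 0.511% of CHX and 5.79% of vehicle. BIRC3, an apoptosis inhibitor, was at 44.9, 46.8 and 42.7 CPM with CHX at 5 h and 1.16, 0.876 and 0.838 with TCHX. The promoters of NFKBIA and BIRC3 printed above held 1 and 2 kappa-B motifs. NFKBIZ was lower with TCHX by -4.50 although its CHX minus vehicle difference was 0.10 and not called. TNFAIP3 (-3.77), RELB (-3.14), NFKBIE (-2.58) and the cytokines IL11 (-2.19) and LIF (-2.08) were also lower, and CXCL8 (-0.94) and TNFAIP2 (-0.18) were not called.

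The ID and TGF-beta feedback genes showed falls of similar size. Of 12 tested of 13, 11 were lower and none higher (median -3.14). HES1, the Notch target, was at 48.0, 43.5 and 107 CPM in vehicle at 5 h, 904, 1101 and 2180 with CHX and 22.5, 18.5 and 11.9 with TCHX. ID1, a dominant negative helix-loop-helix protein, was at 50.6, 47.9 and 51.0, then 418, 422 and 627, then 8.00, 5.26 and 2.51. SMAD7 (-3.86), the inhibitory SMAD, and the EMT factors SNAI1 (-3.66) and SNAI2 (-3.31) were lower as well. HEY1, at 0.16, was not called, and its TCHX libraries at 5 h (22.3, 26.7 and 14.8 CPM) overlapped those of CHX (13, 17.4 and 18.5).

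All 12 genes for mRNA decay adaptors were lower with TCHX (median -1.86), and CHX had raised 11. The RNase ZC3H12A (-5.73), BTG2 (-4.91) and the AU-rich element binding protein ZFP36 (-4.50) led, whereas RC3H2 (-0.64), BTG3 (-0.59) and ZFP36L2 (-0.51) changed little beyond the median of all genes. BTG2 is also in the p53 list, and BBC3, PMAIP1 and PLK3 are in 2 lists as well. Of 10 factors of nonsense-mediated decay, all were lower, between SMG8 (-1.22) and SMG6 (-0.40), with a median of -0.64.

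**Figure D4:**
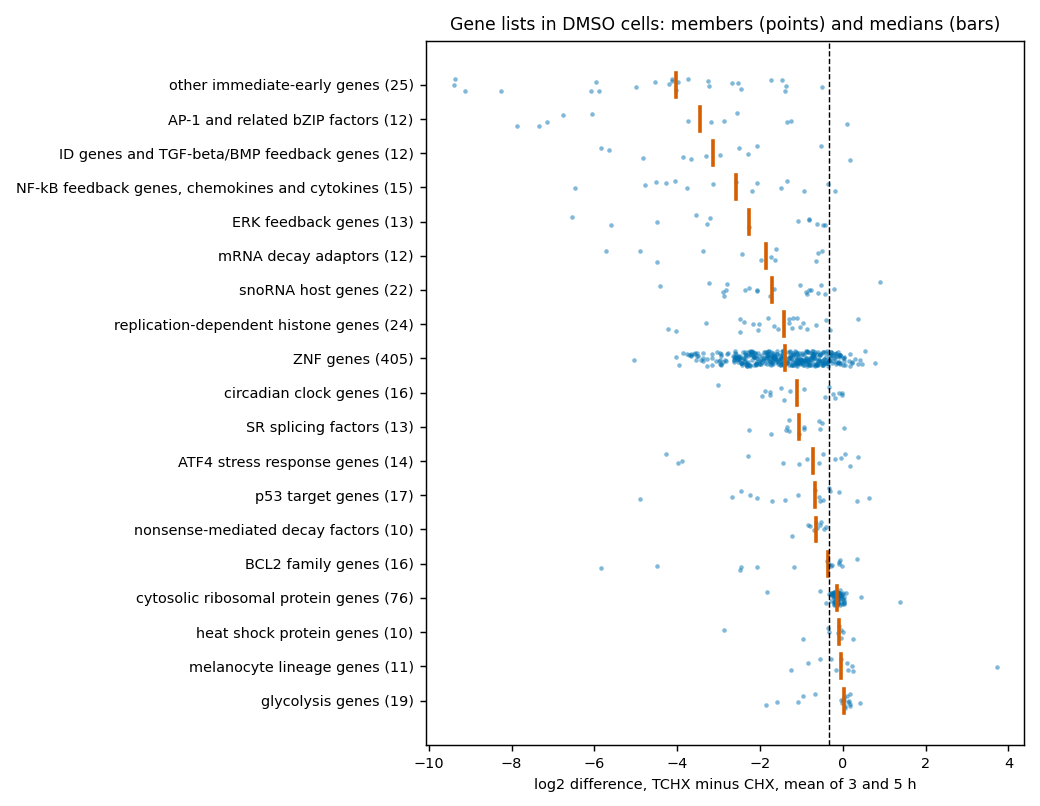
TCHX minus CHX log2 difference (mean of 3 and 5 h, x axis) for every tested member of each gene list (points) with the list's median (bar). The dashed line is the median of all genes, -0.34, and AP-1, other immediate-early, ID and NF-kB genes lie far to its left while glycolysis, ribosomal protein and melanocyte genes lie at or to its right.

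In the BCL2 family the result turned on single members. MCL1, an anti-apoptotic protein with a short-lived mRNA, was at 210, 172 and 233 CPM in vehicle at 5 h, 1641, 1594 and 1878 with CHX and 48.5, 37.1 and 29.2 with TCHX, and its difference over 3 and 5 h was -4.50 ± 0.14. The pro-apoptotic genes BMF (-5.84), BIK (-2.48), BBC3 (-2.45), PMAIP1 (-2.08) and BCL2L11 (-1.17) were lower too. The other 10 of 16, among them BCL2, BCL2L1, BAX, BAK1, BAD and BID, were not called. The family's median, -0.35, was that of all genes.

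Stress pathways were mixed. Of 14 tested genes of the ATF4 response, 8 were lower and 1 higher (median -0.72). DDIT3, which encodes the factor CHOP, was at 36.3, 32.5 and 34.2 CPM in vehicle at 5 h, 366, 357 and 370 with CHX and 15.1, 14.8 and 18.3 with TCHX. ATF4 itself was at 494, 503 and 421, at 2079, 1959 and 1821 and at 266, 262 and 353, so that 15% of its CHX level was left, against 3.87% for the snoRNA host SNHG12. SLC7A11, the cystine transporter, was higher with TCHX by 0.37 ± 0.12, and PHGDH (0.06), PSAT1 (0.18), CHAC1 (-0.04) and TRIB3 (-0.20) were not called.

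Of 17 p53 target genes, 13 were lower and 1 higher (median -0.68). GADD45A (-2.24), PPM1D (-1.72) and the cell cycle inhibitor CDKN1A (-1.40) fell, MDM2 was at -0.54, and the RNA-binding protein gene ZMAT3 was higher by 0.64 ± 0.10. ZMAT3 and SLC7A11 were both lower with CHX than with vehicle, by -1.12 and -0.66. Among 10 tested heat shock genes, DNAJB1, the HSP40 co-chaperone, differed by -2.88 ± 0.14 and the list's median was -0.10. Of 16 clock genes, 10 were lower (median -1.11), led by PER1 (-3.02 ± 0.18), PER2 (-1.94) and BHLHE40 (-1.87).

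Genes for RNA processing were also mostly lower. Of 22 tested snoRNA host genes, whose spliced transcripts are known targets of translation-coupled decay, 19 were lower and 1 higher (median -1.71), and CHX had raised 16. SNHG12 was at 72.3, 64.7 and 67.8 CPM in vehicle at 5 h, 392, 419 and 463 with CHX and 11.9, 22.8 and 14.6 with TCHX. ZFAS1 was at 81.7, 81.5 and 160, at 613, 730 and 1169 and at 128, 112 and 77.6, and here the TCHX libraries overlapped vehicle. At 1 h, 9 of the 22 were lower with TCHX, among them SNHG3 (-1.59), where 0.843% of all genes were. SNHG14, at 0.89 ± 0.33, was the member that was higher. Of 13 tested SR splicing factors, 11 were lower (median -1.05), from TRA2B (-2.27 ± 0.07) to SRSF8 (-0.49), while SRSF1 and SRSF9 were not called.

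Of 405 tested ZNF genes, the large class of zinc finger proteins, 328 were lower and 1 was higher (median -1.39), and CHX had raised 211. Of 24 tested replication-dependent histone genes, 14 were lower (median -1.43), and H4C3 stood at a mean of 662 CPM in vehicle at 5 h, 2025 with CHX and 484 with TCHX. Most histone mRNAs lack a poly(A) tail, and near-identical copies share reads, so single histone genes are uncertain.

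Housekeeping and lineage genes lay at or above the median of all genes. Of 19 tested glycolysis genes 5 were lower and none higher (median 0.04), of 76 ribosomal protein genes 30 were lower (median -0.15), and of 11 melanocyte lineage genes PAX3 and SOX10 were lower (median -0.04). Of the 36 stable genes that set the scale, 6 are ribosomal protein genes. The ribosomal protein and heat shock medians lay above that of all genes except without the filter on low counts.

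A second way to ask whether a rise was kept is to follow the TCHX arm from its own start. Over 3 and 5 h, 2946 genes (19.7%) were lower than at 0 h with TCHX and 188 (1.26%) were higher, and with TMM the split was 1193 to 362. The total of 3134 was 2236, 2047 and 1669 without replicate 1, 2 and 3. AP-1 genes had a median of -0.40 with 5 of 12 lower, and the ID and TGF-beta genes -1.31 with 11 of 12 lower, against -0.21 over all genes. Of the genes at least 2-fold higher with CHX, the 6 that changed most upward from 0 h with TCHX were LOC105374748, SLC6A10P, LOC105370363, LOC107987311, LOC101930665 and CYP1A1, and only the first pair of these was called. LOC105374748 rose by 4.78 ± 0.27. SLC6A10P, a pseudogene of the creatine transporter that may share reads with its parent, rose by 1.5 ± 0.32, with 27.3, 23.0 and 24.8 CPM with CHX and 16.5, 11.9 and 13.7 with TCHX at 5 h. CYP1A1, the aryl hydrocarbon receptor target, was at 1.28, 0 and 1.88 CPM in vehicle, 53.2, 58.4 and 88.2 with CHX and 1.93, 1.63 and 1.01 with TCHX, a rise that was lost.

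The 495 genes higher with TCHX than with CHX became 116 when the difference between the arms at 0 h was subtracted. Of the 495, 146 had at most 3 counts in each of the 6 CHX libraries, and 107 of the 146 also had at most 3 counts in each of the 12 vehicle libraries. The 146 passed the filter on low counts through libraries in which they were higher, of the triptolide arms or of other groups, so their number supports nothing further. Only 10 of the 495 had a difference over 1 and at least 10 CPM. CBX6, a subunit of Polycomb repressive complex 1 (chr22:38861422-38872249, minus strand), was among these 10. In vehicle it was at 456, 493 and 482 CPM at 5 h, with CHX at 92.9, 82.5 and 81.1 and with TCHX at 343, 334 and 342, so that every TCHX library lay between the CHX and the vehicle libraries. Over 3 and 5 h CHX minus vehicle was -2.09 and TCHX minus CHX 1.75 ± 0.07.

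LEP, the gene for leptin, had 0 counts in all CHX libraries at 3 and 5 h and was at 29.5, 21.8 and 24.5 CPM with TCHX at 3 h (98, 198 and 252 counts) and at 4.14, 6.51 and 6.54 at 5 h. Triptolide alone gave 28.1, 29.8 and 34.5 at 3 h. When the difference between the arms at 0 h was subtracted, LEP, which had 0 counts in all libraries of both arms at 0 h, and DCAF4L2 kept their direction but were no longer called. DCAF4L2, a gene for a WD repeat protein, was at 18.3, 15 and 16.4 CPM with TCHX at 3 h and 10.0, 7.76 and 10.2 at 5 h, against 0.663, 0.581 and 1.1 and then 0.399, 0.529 and 0.230 with CHX. At the other end, 201 genes called lower had at most 3 counts in each of the 6 TCHX libraries. CYP1B1, which like CYP1A1 responds to the aryl hydrocarbon receptor, was at 19.5, 20.9 and 16.4 CPM with CHX at 5 h and had 0 counts in all 6 TCHX libraries, which made it at least 24.2-fold lower at a floor of 3 counts per library. Floors cover counting error only, since the reads carry no molecular identifiers.

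Without CHX, 7982 genes (53.4%) were lower with triptolide than in vehicle over 3 and 5 h and 285 (1.91%) were higher. The difference between the effects, tested as an interaction, was positive for 1731 genes (11.6%), which fell less or rose more when CHX was present, and negative for 629 (4.21%). That split was 1354 to 1029 with TMM and 534 to 1344 with mitochondrial rRNA as the scale, so the direction over all genes depends on the scale. The 2360 calls became 1367, 1607 and 1241 without replicate 1, 2 and 3. PLEKHF1, a phosphoinositide-binding protein, fell from 20.4, 16.8 and 13 to 0.214, 0.228 and 0.0909 without CHX, and stood at 18.3, 11.9 and 14.7 with CHX against 8.58, 6.63 and 5.20 with TCHX. Every TCHX library of PLEKHF1 lay above every library of triptolide alone, and the interaction was 4.03 ± 0.31.

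The same test between pretreatments asked whether the effect of triptolide on top of CHX differs when MAPK signalling is inhibited. The TCHX minus CHX difference was larger, that is less negative or more positive, in MAPKi than in DMSO cells for 518 genes (3.47%) and smaller for 1244 (8.32%). The split was 1588 to 675 with TMM, 431 to 539 with mitochondrial rRNA and 450 to 427 without replicate 1. The 1762 calls became 877, 1238 and 1158 without replicate 1, 2 and 3. EGR1 had a difference of 6.61 ± 0.79. With MAPKi it was at 1.83, 0.975 and 1.12 CPM with CHX at 5 h and 0, 0.674 and 0.388 with TCHX, so its CHX level was far under that of DMSO cells. FOS (4.78 ± 0.30) and JUN (4.12 ± 0.15) differed in the same direction. Their classes were split, with 6 of 12 AP-1 genes called larger and 2 smaller (median 0.65). Of the 25 other immediate-early genes 8 were larger and 6 smaller (median 0.22), against a median of -0.12 over all genes. FLG, the filaggrin gene of the epidermis, was at 241, 295 and 238 CPM with CHX at 5 h in DMSO cells and 0.771, 2.75 and 0.503 with TCHX, and at 2.90, 2.80 and 3.77 with CHX in MAPKi cells. FLG overlaps the antisense gene FLG-AS1, and LRATD2 overlaps PCAT1, so their reads cannot be assigned with certainty.

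The 4 genes named for the opposite direction were SNAI1, CXCL1, LRATD2 and CXCR4. SNAI1 was at 8.17, 15.6 and 32.8 CPM with CHX at 5 h in DMSO cells and 1.73, 1.00 and 0.168 with TCHX, and at 18.7, 46.1 and 18.7 and then 0.197, 0 and 0.194 in MAPKi cells. The difference of SNAI1 between pretreatments was -4.79 and, without replicate 2, -2.91 and no longer called. CXCL1, a neutrophil chemokine, was at 12.2, 10.8 and 12.3 with CHX and 0.578, 0.751 and 0.335 with TCHX in DMSO cells, and at 18.9, 46.7 and 22.9 and then 0, 0.0843 and 0 in MAPKi cells. LRATD2, one of the genes above vehicle in DMSO cells, was at 25.1, 19 and 29.7 with CHX and 20.3, 16.5 and 14.9 with TCHX there, and at 7.62, 10.1 and 4.47 and then 0.197, 0 and 0 with MAPKi. The LRATD2 transcript that stood above vehicle in DMSO cells was thus at or near 0 counts in MAPKi cells with both drugs.

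**Figure D5:**
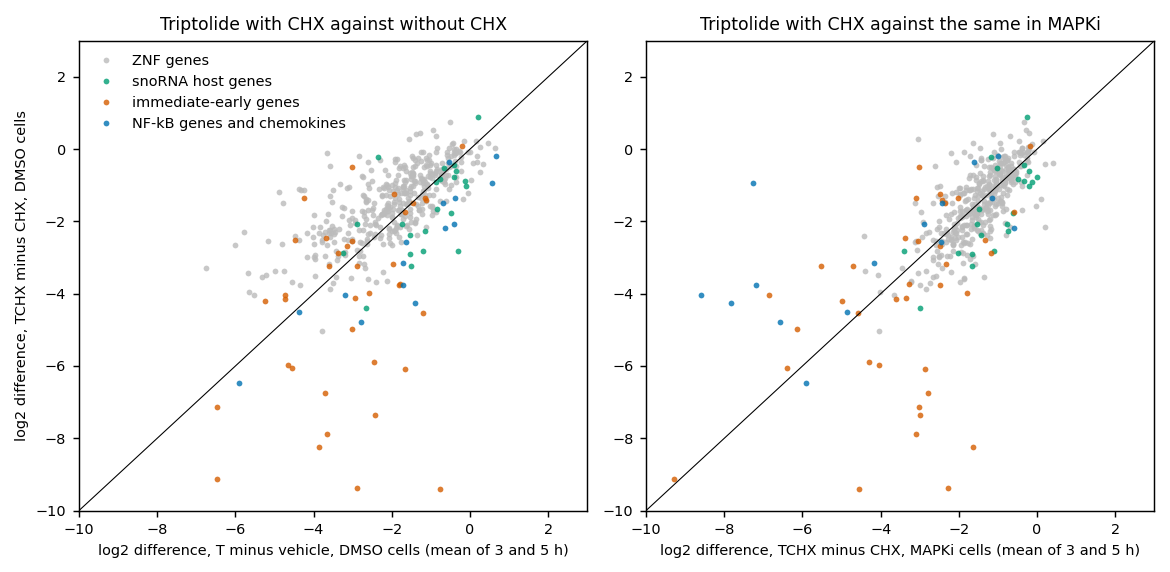
TCHX minus CHX log2 difference in DMSO cells (mean of 3 and 5 h, y axis) against T minus vehicle in DMSO cells (left, x axis) and against TCHX minus CHX in MAPKi cells (right, x axis), with a point for each gene of the ZNF, snoRNA host, immediate-early and NF-kB lists and a diagonal of equal values. Some immediate-early genes, such as EGR1 (-8.25 in DMSO, -1.64 in MAPKi), lie farthest below the diagonal on the right, while others lie above it.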

How the data were processed

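Libraries were made from 500 ng of cytoplasmic RNA with a 3′ end kit (QuantSeq), so each read marks the 3′ end of a transcript and carries no molecular identifier. Raw counts per gene were deposited by the authors. According to the submitters' processing notes and the study's methods, reads were trimmed with fastp 0.20.1, mapped to GRCh38.p13 with HISAT2 2.2.1 and counted on exons with HTSeq 0.13.5. The strand setting is not given in the sources used here. Groups were taken from the labels.

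The 96 libraries (32 groups of 3) were fitted together with edgeR 4.0.16 in R 4.3.3 (quasi-likelihood test), which shares 1 estimate of spread. Genes were kept by edgeR's filter on low counts, 14948 of 44659 entries. Size factors were DESeq2 1.42.0 median ratios over 36 stable genes, adapted from the study's methods (over 0.2 CPM at the start, at least 1.1 times that after 3 and 5 h of triptolide alone, and a starting level above 10% of the later one, in every replicate). The study's rule reads 3 or 5 h, which gave 526 genes and was run as an alternative. The median of ratios keeps relative levels, so the choice of reference genes sets the position of 0. Normalised CPM is the count divided by the size factor and by the geometric mean library total. Adjusted p-values are Benjamini-Hochberg over all genes, with a threshold of 0.05. Gene positions are those of the GRCh38 annotation, and 13196 of the 14948 genes matched it by symbol, 138 by a synonym, 92 ambiguously and 1522 not at all.

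Genes were named by rule, from the largest falls (8) and rises (4) of TCHX minus CHX over 3 and 5 h, the largest falls at 1 h (6), the largest CHX rises at 1 h (10), the CHX rises best kept from 0 h with TCHX (6), and the largest interactions (4 each way), with at least 10 CPM, plus the members of gene lists. The same direction in all replicates was required for the TCHX minus CHX falls and rises and for the CHX rises at 1 h. It was not required for the best kept rises or for the interactions. A gene that the rule also names is not reported here. Members and lists were chosen with earlier results of these data known. On simulated counts for TCHX minus CHX over 3 and 5 h, run on 14948 genes, 96% of changes of 1 and 56% of changes of 0.5 on the log2 scale were recovered, with 4.40% of calls false. The changes were put only into a small share of genes, all with high mean counts. The simulation used the libraries of this contrast alone and the true size factors. Recovery at low counts, with many changed genes or with an uncertain scale was not tested. Alternatives were TMM, total-count and mitochondrial rRNA scaling, a wider stable set, no low-count filter, DESeq2, the compared groups alone, a replicate term, the arms' 0 h difference subtracted and each replicate number left out.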

Additional observations from a re-analysis of the deposited data

Results flagged for a closer look

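The effect of triptolide over 3 and 5 h differed between cells with and without CHX, by an interaction term in edgeR's test across all genes, for these named genes among others. The log2 difference with minus without CHX was 4.03 for PLEKHF1, 3.86 for IQCC and 3.82 for C15orf39, which were lower with triptolide alone by far more than on top of CHX. It was -10.66 for CYP1B1, -6.47 for EGR2, -6.47 for LOC105370363 and -6.11 for LOC107987311. CYP1B1 had 0 counts in all 6 TCHX libraries, so its fitted value is no measure of size. The call was lost without replicate 2 for CYP1B1 and LOC107987311, without replicate 3 for EGR2 and LOC107987311, and without replicate 1 for LOC105370363. IQCC and C15orf39 overlap antisense genes, and the part of those reads was not tested.

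The effect of triptolide on top of CHX differed between MAPKi and DMSO cells by the same kind of test. The log2 difference MAPKi minus DMSO was 9.98 for CYP1B1, 7.09 for EGR2, 6.61 for EGR1 and 5.39 for FLG. It was -4.79 for SNAI1, -4.54 for CXCL1, -3.90 for LRATD2 and -3.65 for CXCR4. The call was lost without replicate 1 for CYP1B1, EGR2 and CXCR4, without replicate 2 for SNAI1 and CXCR4, and without replicate 3 for CYP1B1. CXCR4, a chemokine receptor, was at 1.99, 5.29 and 3.33 CPM with CHX at 5 h in DMSO cells and 0.289, 0.501 and 0 with TCHX, and at 15.1, 14.6 and 14.4 and then 0, 0.253 and 0.388 in MAPKi cells.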

How the results depend on the processing

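Counts of called genes depended on the setting as follows. TCHX against CHX at 0 h had 1 call, 0 with TMM, total counts, mitochondrial rRNA, the replicate term or any replicate number left out (0 to 0), and 3 without the low-count filter or with the compared groups alone. At 1 h the 127 calls became 51 to 70 with a replicate number left out. CHX against vehicle at 1 h had 17 calls, 11 with TMM or total counts, 9 with mitochondrial rRNA, 45 without the filter, 10 with the compared groups alone and 4 to 11 with a replicate number left out. CHX against vehicle over 3 and 5 h had 4582 calls, and 7017 with mitochondrial rRNA. TCHX against its 0 h level had 3134, 1555 with TMM, 1734 with total counts, 1493 with mitochondrial rRNA and 1669 to 2236 with a replicate number left out. The interaction with CHX had 2360 (1241 to 1607) and that with MAPKi 1762 (877 to 1238, and 970 with mitochondrial rRNA). Totals for TCHX against CHX at 3 h, at 5 h and over both, and the share of 94.8%, stayed within 1.5 times under every alternative run. The results that reversed were TCHX minus CHX over 3 and 5 h for YWHAE (0.15 with TMM, 0.14 with total counts) and SLC6A10P (0.26 with TMM, 0.25 with total counts, 0.050 without replicate 2), neither of which was called, and LOC107987311 against its 0 h level (-0.0073 without replicate 1, 4.34 without replicate 2). Of 62 named gene results, 37 kept their call and direction under every alternative.

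Replicate numbers did not pair the samples. Deviations of same-numbered CHX and TCHX libraries from their group means correlated at -0.59 to 0.23 (median 0.0071) at 1 to 5 h and those of other numbers at -0.33 to 0.50. At 0 h the same-numbered correlations were 0.087, 0.22 and 0.20. Columns of one replicate number share a prefix, whose meaning is not given in the sources used here. With a replicate block the calls were 134 at 1 h, 4021 at 3 h, 6534 at 5 h, 7001 over both, 16 and 4764 for CHX against vehicle at 1 h and over 3 and 5 h, 3320 against 0 h, and 2548 and 1900 for the interactions.

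Named calls lost under some alternatives were the 1 h rises of MAP3K14, ATF3, TXNIP, EPB41L4A-AS1, DDIT3, FOS and YWHAE, EGR4 with DESeq2, both interactions of CYP1B1 with DESeq2, and LEP, DCAF4L2, LOC105370363 and LOC107987311 with the 0 h difference subtracted. The cause was not tested. Genes at 0 to 3 counts in one arm set no size, and counting error is covered only by the floors.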

Other observations

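Values of 3 more of the 17 genes above vehicle with both drugs at 5 h follow. COL9A3, a collagen chain, was at 100, 133 and 148 CPM in vehicle, 225, 246 and 314 with CHX and 193, 194 and 162 with TCHX. Triptolide alone gave 178, 193 and 178, so the COL9A3 level above vehicle was also seen without CHX. UCN2, a peptide hormone of the urocortin family, was at 7.92, 9.29 and 5.36 in vehicle and at 11.7, 11.5 and 21 with TCHX. At 0 h UCN2 was at 14.3, 12.3 and 14.9 in vehicle and 12.6, 8.77 and 13.4 with TCHX. HEY1, a Notch target, dropped in vehicle from 43.2, 47.4 and 44.4 at 0 h to 13.3, 9.58 and 18.6 at 5 h, and was at 5.45, 3.08 and 4.27 with triptolide alone. These genes were named after their values were seen.

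LOC107985895, an uncharacterised locus, was lower with TCHX although its CHX level was not called against vehicle over 3 and 5 h. It was at 7.18, 7.93 and 7.13 CPM with CHX at 5 h and had 0 counts in the 3 TCHX libraries, with a log2 CHX minus vehicle difference of 0.43 over 3 and 5 h.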
